A study of Mus musculus with 29 samples.

Results

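The 6 genes described are Gli1, Gli2, Gli3, Ptch1, Smo and Hhip, core components and targets of the Hedgehog pathway, measured in podocytes sorted from mouse glomeruli. They were chosen by symbol from the 20141 genes named on the array, on the basis of earlier results in these same samples, so their own values are given as a description without a test. Together they have 8 probes, each matched through its RefSeq accession. Gli1, Gli2, Gli3 and Ptch1 have 1 probe each, and Smo and Hhip have 2 each. Of the 6 genes, 4 (Gli1, Gli3, Ptch1 and Smo) entered the fit because 3 or more of the 29 arrays read one of their probes well above background, while Gli2 and Hhip did not.

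The podocytes came from 16 male Pod-hCD25T/G mice on a C57BL/6J background, 8 weeks old, whose podocytes carry either a TdTomato or an EGFP marker. The treatment given for all samples was removal of 1 kidney followed by LMB2 at 25 ng per g body weight, and whether the day 0 mice had the surgery is not stated. LMB2 is a recombinant immunotoxin in which a Pseudomonas exotoxin is carried to cells by an antibody fragment that binds human CD25. In this model the labels do not say which cells the toxin hits, but from what is known of the study the TdTomato cells carry human CD25 and are the toxin's target, whereas the EGFP cells do not carry it. EGFP podocytes were measured before LMB2 (day 0, n = 4) and 1 day (n = 3), 4 days (n = 4) and 7 days (n = 4) after it. TdTomato podocytes were measured at day 0 (n = 4), day 1 (n = 4), day 4 (n = 4) and day 7 (n = 2). A total of 13 mice gave both populations. Each sample was hybridised to its own 1-colour array, and 48.2% to 65.5% of its spots were well above background, with 0 saturated spots. Arrays of the same group correlated at 0.956 to 0.988 over the genes tested.

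In Hedgehog signalling a secreted ligand (Sonic, Indian or Desert hedgehog) binds the receptor Patched and lifts its inhibition of Smoothened, which then acts in the primary cilium. The signal ends in the Gli transcription factors. Gli2 and Gli3 pass it on, Gli3 mostly as a repressor when ligand is absent, and Gli1 is both an activator and a target gene that serves as a readout of pathway activity. Ptch1 and Hhip are target genes as well, and their proteins damp the response by binding ligand. In the kidney, ligands made by tubular cells are known to signal to Gli1-positive pericytes and perivascular fibroblasts.

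All levels are log2 signal minus the 75th percentile of the same array, so a value of 0 means the brightness of the array's 75th percentile spot. The dimmest signal that counted as well above background lay between -6.19 and -3.78 on this scale, with a median of -5.04 over the 29 arrays. Levels of different probes are not compared with each other, because probes differ in how brightly they bind. In sorted bulk RNA, fewer cells of a type and less RNA per cell cannot be told apart. The podocyte identity of the sorted cells was checked on 8 marker genes, and each of the 8 passed the filter. Their summed level was 10.96 to 11.73 in TdTomato cells at day 0, 10.37 to 10.91 at day 1, 10.31 to 10.77 at day 4 and 10.83 to 11.11 at day 7. Nphs1 (nephrin, a component of the slit diaphragm) had a level of 7.60 ± 0.22 (SD, n = 4) in TdTomato cells at day 0 and at 6.27 ± 0.09 (SD, n = 4) at day 4. Podxl, the main sialoprotein of the podocyte surface, stood at 7.06 ± 0.15 (SD, n = 4) at day 0 and 5.36 ± 0.67 (SD, n = 4) at day 1. The transcription factor Wt1 stood at 8.21 ± 0.25 and 7.09 ± 0.17 (SD, n = 4 each) at days 0 and 4, and the actin-binding Synpo at 7.67 ± 0.10 and 6.60 ± 0.25. These markers were above background on every TdTomato array.

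Gli1 showed the widest range of the 6 genes. It was not above background on any array at day 0, was bright on every TdTomato array at days 1 and 4, and was still above background on both TdTomato arrays at day 7. At day 0 the 4 EGFP arrays read -6.66, -6.63, -6.41 and -5.66. The 4 TdTomato arrays of day 0 read -5.88, -6.94, -6.41 and -7.09. None of these 8 values was well above background, so they give only an upper bound on the level before LMB2.

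One day after LMB2 the 4 TdTomato arrays read 4.66, 1.49, 3.24 and 3.90 for Gli1, a mean of 3.32 ± 1.35 (SD, n = 4). At day 4 they read 4.13, 3.94, 3.88 and 3.54, a mean of 3.87 ± 0.25 (SD, n = 4). The groups of days 1 and 4 overlapped with each other. Both lay far above the day 0 arrays without overlap. Since Gli1 was below background at day 0, the difference is a lower limit, taken as the mean of the bright group against the mean, per array, of the higher of the detection level and the probe's own reading. On that basis Gli1 was at least 338-fold higher at day 1 and at least 495-fold higher at day 4 than at day 0 in TdTomato cells. The fitted log2 differences, which use the readings below background as they are, were 9.90 ± 0.64 and 10.45 ± 0.64 (limma estimate ± SE). They ranked 6 and 11 from the top among the 15622 genes tested. Under normexp background correction, which raises dim readings, they were 5.16 and 5.68.

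By day 7 the Gli1 signal in TdTomato cells stood at -2.86 and -2.13, a mean of -2.50 ± 0.52 (SD, n = 2). Both arrays lay below every TdTomato array of days 1 and 4 and above every TdTomato array of day 0. The level was at least 5.98-fold higher than at day 0, with a fitted log2 difference of 4.08 ± 0.78 (SE). Under normexp it was 0.83.

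EGFP podocytes gave much lower Gli1 signals. At day 1 the 3 EGFP arrays read -3.06, -6.69 and -3.37, and 2 of the 3 were above background. At day 4 they read -3.55, -3.61, -4.38 and -5.18, and 1 of the 4 was above background. At day 7 they read -5.34, -7.09, -6.04 and -6.34, with 0 of 4 above background. The day 1 EGFP group overlapped with day 0. The day 4 EGFP group did not, and its fitted log2 difference from day 0 was 2.16 ± 0.64 (SE), although 3 of its 4 readings were not above background. These EGFP differences shrank under normexp to 0.32 at day 1 and 0.27 at day 4. The highest EGFP array of all days (-3.06) stayed below the lowest TdTomato array after LMB2 (-2.86).

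TdTomato cells exceeded EGFP cells in Gli1 by a fitted log2 difference of 7.70 ± 0.69 (SE) at day 1, 8.05 ± 0.64 at day 4 and 3.71 ± 0.78 at day 7. At day 7 the EGFP group was not above background, and the lower limit was 4.52-fold. The corresponding normexp values were 4.95, 5.52 and 0.87. At day 0 the difference was -0.24 ± 0.64 and the groups overlapped. In the 3 mice whose EGFP reading after LMB2 was above background, the Gli1 signal of the EGFP cells was 0.474% (MC125, day 1), 1.02% (MC542, day 1) and 0.534% (MC692, day 4) of that of the TdTomato cells. The part of TdTomato cells or RNA in the EGFP samples was not tested.

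**Figure D1:**
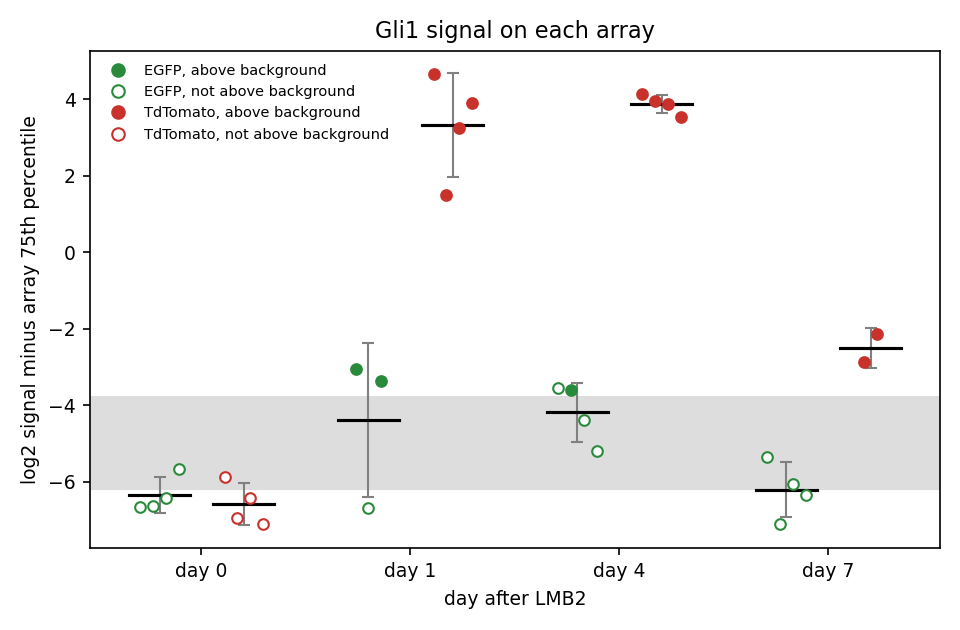
Gli1 on each of the 29 arrays, as log2 signal minus the array's 75th percentile (vertical axis) by day after LMB2 (horizontal axis) for EGFP (green) and TdTomato (red) podocytes. Filled points were well above background and open points were not; black lines are group means, grey bars are SD, and the grey band spans the arrays' detection levels from -6.19 to -3.78. The TdTomato arrays of days 1 and 4 lie between 1.49 and 4.66, those of day 7 at -2.86 and -2.13, and the EGFP arrays at or below -3.06.

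Ordered by mean level, Gli1 was highest in TdTomato cells at day 4 (3.87) and day 1 (3.32), which overlapped. It was next highest in TdTomato cells at day 7 (-2.50). EGFP cells at day 4 (-4.18) and day 1 (-4.37) followed and overlapped with each other. EGFP cells at day 7 (-6.20) and day 0 (-6.34) and TdTomato cells at day 0 (-6.58) came last and overlapped, all below background. The arrays lay on 4 slides, each scanned in 1 run. Within slides the TdTomato difference from day 0 was 8.44 to 11.00 at day 1 (4 slides), 10.01 to 10.89 at day 4 (4 slides) and 3.02 to 4.81 at day 7 (2 slides).

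Gli1 is also a marker of perivascular mesenchymal cells, so markers of fibroblasts and pericytes were read beside it. Of 10 such markers 5 passed the filter (Pdgfrb, Col1a1, Col1a2, Dcn and Cspg4), and Pdgfra, Lum, Dpt, Mfap5 and Col15a1 did not. Dpt was above background on 0 of 29 arrays, Lum and Col15a1 on 1 each, and Pdgfra and Mfap5 on 2 each. The summed level of the list was 7.18 to 8.26 in TdTomato cells at day 0, 5.55 to 5.79 at day 1, 6.31 to 7.42 at day 4 and 7.28 to 7.84 at day 7. In EGFP cells it was 7.28 to 8.67 over the 4 days. Such a sum follows the brightest genes of a list most. In TdTomato cells the median log2 difference of the 5 markers from day 0 was -1.61 at day 1 and 0.73 at day 4. Single markers ran from -1.49 to 1.53 at day 4. Pdgfrb, the pericyte receptor, stood at 1.32 ± 0.55 (SD, n = 4) at day 0 and -0.44 ± 0.51 (SD, n = 4) at day 1. The summed level of 8 mesangial and smooth muscle markers was -0.05 to 0.87 at day 0, -1.29 to 0.73 at day 1, 2.08 to 2.84 at day 4 and 2.12 to 3.35 at day 7. That of the 7 of 8 myeloid markers past the filter was 5.26 to 5.82 at day 0, 6.38 to 8.05 at day 1, 5.52 to 6.85 at day 4 and 5.52 to 6.30 at day 7. The median log2 difference of these 7 markers from day 0 was 0.59 at day 1 and 0.44 at day 4. The part of these cells in the Gli1 signal was not tested.

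The genes whose levels followed Gli1 most closely over the 29 arrays were Elf5, an epithelial transcription factor of the ETS family (Pearson r = 0.983), Tmprss9, a transmembrane serine protease (r = 0.983), and Cnbd2, which carries a cyclic nucleotide-binding domain (r = 0.978). The arrays share mice, slides and the large gap between TdTomato cells of days 1 and 4 and all others, so these values describe a shared pattern and have no p. Elf5 stood at -6.70 ± 0.58 (SD, n = 4) in TdTomato cells at day 0, 2.26 ± 1.46 (n = 4) at day 1, 3.07 ± 0.27 (n = 4) at day 4 and -0.94 ± 0.56 (n = 2) at day 7. Within the 4 mice of day 4 the EGFP signal was 0.336% to 0.749% of the TdTomato signal for Tmprss9, which was above background on all 4 EGFP arrays of that day. For Cnbd2, which was above background on these arrays and on every array at day 0, it was 2.88% to 3.83%.

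Gli2 and Gli3, the factors that carry the signal from Smoothened to the nucleus, were at or near background. Gli2 was well above background on 0 of 29 arrays. Its group means ran from -7.06 ± 0.43 (SD, n = 4) in TdTomato cells at day 1 to -6.12 ± 0.16 (SD, n = 2) in TdTomato cells at day 7. These readings give no order, and a low level of Gli2 was not detectable with this probe.

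Gli3 was above background on 3 of 29 arrays, 1 each in EGFP cells at day 0, EGFP cells at day 7 and TdTomato cells at day 1. The TdTomato arrays at day 7 read -3.95 and -4.31, against -6.14 ± 0.86 (SD, n = 4) at day 0. Neither was well above background, and 0 of 4 were at day 0, so no fold is given although the fitted log2 difference was 2.01 ± 0.59 (SE). Under normexp it was 0.57. The EGFP arrays at day 7 also read high for this probe, at -4.66 ± 0.23 (SD, n = 4), with 1 of 4 above background.

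Ptch1, the receptor that holds Smoothened in check, was above background on all 29 arrays and was lower in TdTomato cells after LMB2. At day 0 the TdTomato arrays ran from 0.03 to 1.37, with a mean of 0.62 ± 0.56 (SD, n = 4). They ran from -0.92 to -0.08 at day 1, with a mean of -0.36 ± 0.38 (SD, n = 4), and from -1.59 to -0.19 at day 4, with a mean of -0.82 ± 0.58 (SD, n = 4). Neither day overlapped with day 0. The log2 differences from day 0 were -0.97 ± 0.40 (SE) at day 1 and -1.43 ± 0.40 at day 4, which is 1.96-fold and 2.70-fold lower. At day 7 the arrays read -0.34 and 0.28 and overlapped with day 0.

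In EGFP cells Ptch1 stood at 0.52 ± 0.80 (SD, n = 4) at day 0, 0.05 ± 0.50 (n = 3) at day 1, 0.06 ± 0.71 (n = 4) at day 4 and -0.24 ± 0.44 (n = 4) at day 7, and every later day overlapped with day 0. TdTomato and EGFP cells overlapped in Ptch1 on each of the 4 days. Their difference was widest at day 4, at -0.88 ± 0.40 (SE). Within slides, however, the day 4 difference between the populations was -1.1 to -0.78 on the 4 slides, so TdTomato was the lower one on each. The genes most like Ptch1 over the 29 arrays were Hoxa9 (Pearson r = 0.882), a homeobox gene, Tmem87a (r = 0.866) and the pseudogene Ppp4r1l-ps (r = 0.843).

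Ptch1 is a long-known target of Gli factors, and its signal was lower on the days when that of Gli1 was high. Its promoter is shown, as the 250 bases that precede the start site, taken from RefSeq (GRCm38.p6, chr13:63565736-63565985, minus strand, 5′ to 3′). RefSeq promoters were matched for 5 of the 6 genes (Gli2, Gli3, Ptch1, Smo and Hhip) and not for Gli1.
Ptch1: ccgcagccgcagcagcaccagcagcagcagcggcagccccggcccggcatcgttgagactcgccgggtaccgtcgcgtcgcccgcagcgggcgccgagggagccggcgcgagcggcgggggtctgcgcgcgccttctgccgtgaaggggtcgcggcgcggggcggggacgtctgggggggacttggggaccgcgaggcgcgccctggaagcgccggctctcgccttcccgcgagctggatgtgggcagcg
The consensus site of Gli factors, GACCACCCA, was searched as an exact match on both strands (TGGGTGGTC on the other) in these windows. It was found in 0 of the 5 windows, in 0 of 48 windows of the other pathway genes with a RefSeq promoter (37 genes), and in 74 of all 32851 promoters (0.225%). With so rare a match, its absence from so few windows carries no information on Gli regulation of these genes. Capitals would mark a match, and the window above has none. The Ptch1 window holds 78.4% G and C bases and 41 CG pairs.

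Smo, which encodes Smoothened, has 2 probes, both above background on all 29 arrays, and they disagreed. On the brighter probe the TdTomato arrays ran from 6.11 to 6.61 at day 0, with a mean of 6.35 ± 0.24 (SD, n = 4). They ran from 4.85 to 5.17 at day 1, with a mean of 4.96 ± 0.15, and from 4.64 to 5.27 at day 4, with a mean of 5.02 ± 0.27 (SD, n = 4 each). At day 7 they read 5.76 and 5.67. None of the 3 later days overlapped with day 0. The log2 differences were -1.39 ± 0.16 (SE) at day 1, -1.33 ± 0.16 at day 4 and -0.64 ± 0.19 at day 7. EGFP cells had means on this probe of 6.30 ± 0.23, 6.09 ± 0.29, 6.22 ± 0.19 and 6.05 ± 0.10 (SD, n = 4, 3, 4 and 4) at days 0, 1, 4 and 7. Days 1 and 4 overlapped with day 0, and day 7 lay wholly below it by -0.26 ± 0.16 (SE). TdTomato cells stood below EGFP cells without overlap at day 1 (-1.13 ± 0.17, SE), day 4 (-1.21 ± 0.16) and day 7 (-0.33 ± 0.19).

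The dimmer Smo probe gave another picture. In TdTomato cells it stood at 2.84 ± 0.20 (SD, n = 4) at day 0, 2.70 ± 0.32 (n = 4) at day 1, 3.06 ± 0.59 (n = 4) at day 4 and 2.91 ± 0.05 (n = 2) at day 7, and each later day overlapped with day 0. Its log2 differences from day 0 were -0.14 ± 0.24 (SE), 0.22 ± 0.24 and 0.07 ± 0.29. In EGFP cells it was lower at day 7, at 2.04 ± 0.21 (SD, n = 4) against 2.87 ± 0.46 (n = 4) at day 0, without overlap. Both probes were assigned to the same RefSeq transcript, so the lower Smo level in TdTomato cells rests on 1 of its 2 probes. The mean of both probes gave -0.76 at day 1 and -0.55 at day 4. The genes most like the brighter probe were Chmp7 (Pearson r = 0.978), Atp5h (r = 0.975) and Os9 (r = 0.974), which serve membrane remodelling, the mitochondrial ATP synthase and protein quality control in the endoplasmic reticulum.

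**Figure D2:**
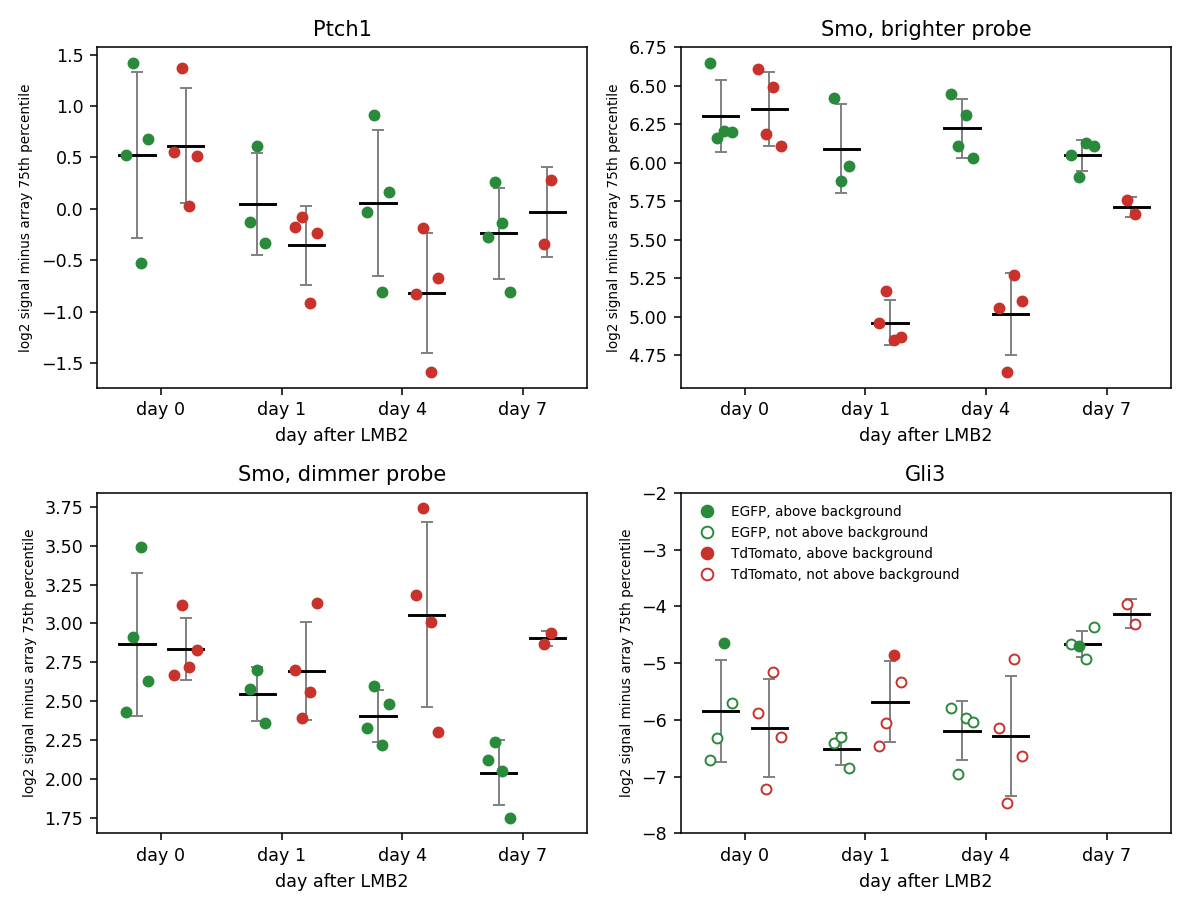
Ptch1, both Smo probes and Gli3 on each array, as log2 signal minus the array's 75th percentile (vertical axes, which do not start at 0 and differ between panels) by day after LMB2, with EGFP in green and TdTomato in red. Filled points were well above background, black lines are means and grey bars are SD. The brighter Smo probe lies between 4.64 and 5.27 in TdTomato cells at days 1 and 4, below every EGFP array, while the dimmer Smo probe overlaps with day 0.

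Hhip, a membrane protein that binds ligand and a known Gli target, was not detected in the way that Gli1 was. Of its 2 probes 1 was above background on 0 of 29 arrays and the other on 2 of 29, namely 1 EGFP array at day 0 (-4.77) and 1 TdTomato array at day 1 (-3.89). The group means of the second probe ran from -6.85 ± 0.39 (SD, n = 3) in EGFP cells at day 1 to -5.95 ± 0.38 (SD, n = 4) in TdTomato cells at day 4.

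Counted by the rule used for all genes (limma with Benjamini-Hochberg adjusted p under 0.05 over 15622 genes), the 4 members in the fit gave the following. In TdTomato cells against day 0, 1 was higher and 2 were lower at day 1, where 23.8% of all genes were called higher and 27.9% lower. At day 4 again 1 was higher and 2 were lower, beside 21.4% higher and 35.9% lower. At day 7, 2 were higher and 1 lower, beside 10.9% and 8.47%. Without either of the 2 TdTomato arrays of day 7, 1 in place of 3 was called. In EGFP cells 0 of 4 were called at any day. The shares of all genes there were 0.0256% higher and 0% lower at day 1, 0.557% and 0.0384% at day 4, and 5.34% and 1.92% at day 7. TdTomato against EGFP cells gave 1 higher and 1 lower at day 1 (all genes 23.7% and 25.6%), the same numbers at day 4 (21.0% and 38.6%) and 1 higher at day 7 (6.19% and 0.800%). Nothing is read from these counts, because the 6 genes were selected on results of the same comparisons.

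The other genes of the pathway were tested in the same fit, in lists by role that were drawn up with earlier results of these data known. Of 51 such genes 49 passed the filter. The median log2 difference over all genes tested was -0.13, -0.29 and -0.14 in TdTomato cells at days 1, 4 and 7 against day 0, and list medians are given beside it. In TdTomato cells 34 of 49 passed the threshold at day 1 (9 higher and 25 lower, beside 23.8% and 27.9% of all genes). At day 4, 32 passed (6 higher and 26 lower, beside 21.4% and 35.9%), and at day 7, 13 (5 higher and 8 lower, beside 10.9% and 8.47%). In EGFP cells 0 passed by limma at day 1 (beside 0.0256% higher and 0% lower of all genes) and 0 at day 4 (beside 0.557% and 0.0384%). On these days 0 and 6 of the 49 had an unadjusted limma p under 0.05. At day 7, 4 passed in EGFP cells (3 higher and 1 lower, beside 5.34% and 1.92% of all genes). Without the TdTomato day 7 array of mouse MC791, the count at day 7 was 4 in place of 13.

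Among the ligands, Indian hedgehog (Ihh) rose in TdTomato cells at day 4 and Desert hedgehog (Dhh) at day 7, while Sonic hedgehog (Shh) was not above background on any of the 29 arrays. Ihh read -3.21, -3.11, -3.73 and -3.52 in TdTomato cells at day 0 and 0.24, -0.80, -1.35 and -0.96 at day 4, without overlap. The log2 difference was 2.67 ± 0.42 (SE), 6.38-fold, with a limma adjusted p of 1.1e-05. At day 1 Ihh ran from -4.08 to -3.05, and at day 7 it stood at -2.16 and -2.13 with a difference of 1.25 ± 0.51 that did not pass (adjusted p = 0.089). At day 4 TdTomato exceeded EGFP cells by 2.51 ± 0.42 (adjusted p = 2.2e-05), and the change from day 0 differed between the populations by 2.36 ± 0.59 (adjusted p = 0.0028). The summed level of 8 proximal tubule markers was 0.76 to 2.48 in TdTomato cells at day 0 and 1.1 to 5.42 at day 4, and its part in the Ihh signal was not tested.

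Dhh read -4.36, -4.19, -4.62 and -4.70 in TdTomato cells at day 0, with 3 of 4 above background. It read -3.62, -4.44, -2.56 and -2.21 at day 4 and -2.02 and -0.91 at day 7. The rise at day 7 was 3.0 ± 0.66 (SE), 8.02-fold, with a limma adjusted p of 0.0025, whereas that at day 4 did not pass (1.26 ± 0.54, adjusted p = 0.051). Without the array of mouse MC791 the day 7 difference was 2.45 and no longer passed. EGFP cells were below background for Dhh at days 1, 4 and 7, so that TdTomato cells were at least 2.37-fold higher at day 4 and at least 9.23-fold higher at day 7 (adjusted p = 0.0017 and 3e-05). The day 4 call was lost under normexp, where the fitted log2 difference was 0.38. The change from day 0 to day 7 differed between the populations by 4.11 ± 0.86 (adjusted p = 0.0052), and by 3.55 without that array or 1.1 with normexp, which both did not pass. Dhh is known from endothelial cells, and the summed level of 8 glomerular endothelium markers moved with it, from 3.37 to 4.33 in TdTomato cells at day 0, through 2.50 to 5.69 at day 4, to 5.56 to 6.22 at day 7, against 3.28 to 3.77 in EGFP cells at day 7. The part of these cells in the Dhh signal was not tested.

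Of the 5 genes for ligand acylation and release, 2 rose and 1 fell in TdTomato cells at day 1, with a list median of 0.81. The shares of all genes called at day 1 were 23.8% higher and 27.9% lower. Scube1, a secreted protein that helps release ligand, was below background on every array of day 0 and above it on all 4 TdTomato arrays of day 1, at -3.56, -4.25, -3.24 and -3.53. It was at least 2.44-fold higher, with a fitted log2 difference of 2.68 ± 0.33, and was below background again on all TdTomato arrays of days 4 and 7. Scube1 passed the filter only through these 4 arrays of day 1, so its limma adjusted p (3.1e-07) is no support for the rise. Under normexp the difference was 0.14 and did not pass. Disp1, the transporter that exports ligand from the cell, rose by 1.16 ± 0.29 (SE) at day 1 (2.24-fold, adjusted p = 0.0013) and differed from day 0 by amounts that did not pass at days 4 and 7. Scube3 rose in EGFP cells at day 7 by a fitted 2.81 ± 0.60 (at least 1.96-fold, adjusted p = 0.0032), with 2 of 4 arrays above background, a call lost with normexp (0.37). It rose in TdTomato cells at day 4 (at least 1.54-fold, adjusted p = 0.019), a call lost without the TdTomato day 0 array of mouse MC742 or the day 4 array of MC151, MC692 or MC822 (1.41 to 1.57). With normexp that difference was -0.01. The acyltransferase Hhat fell by 1.42 ± 0.24 at day 1 (adjusted p = 2.4e-05) on its brighter probe. On its other probe the difference was -0.17 ± 0.16.

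Of 5 co-receptors that help cells receive ligand, 2 (Gas1 and Boc) fell in TdTomato cells at day 1, 3 (Gas1, Boc and Cdon) fell at day 4, and Boc also fell at day 7. Beside these, 27.9%, 35.9% and 8.47% of all genes were called lower at days 1, 4 and 7. At day 4, 1 other gene of the list rose, beside 21.4% of all genes. The list median was -0.08 at day 1 and -1.15 at day 4. Boc ran from 1.20 to 1.57 in TdTomato cells at day 0 and from -1.04 to -0.12 at day 1. Its log2 difference was -1.80 ± 0.21 (SE, 3.49-fold, adjusted p = 1.6e-07) at day 1, -1.39 ± 0.21 at day 4 (adjusted p = 8.7e-06) and -1.11 ± 0.26 at day 7 (adjusted p = 0.0041), a call lost with the authors' values (-1.09). Gas1 fell by 2.31 ± 0.53 at day 1 (4.97-fold, adjusted p = 0.00067), and its other 2 probes gave -2.06 ± 0.37 and -2.38 ± 0.77. Its day 4 call was lost with quantile normalization (-1.12) and without any 1 of the TdTomato arrays of mice MC731 or MC742 (day 0) or MC151, MC692 or MC823 (day 4), with values of -1.38 to -1.11. Cdon fell at day 4 by 1.15 ± 0.21 (adjusted p = 6.5e-05), and its dimmer probe gave -1.15 ± 0.34.

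Of 16 genes listed as regulators of Gli proteins or partners of Smoothened, 1 rose and 10 fell in TdTomato cells at day 1 (median -0.74). Of these, 8 of the 16 fell at day 4 (median -0.52) and 3 fell at day 7 (median -0.15). The shares of all genes called lower on these days were 27.9%, 35.9% and 8.47%. Spop and Btrc, adaptors of the ubiquitin ligases that degrade or process Gli proteins, were among them on all 3 days. Spop fell by 1.36 ± 0.14 at day 1, 1.38 ± 0.14 at day 4 and 0.69 ± 0.18 at day 7 (limma adjusted p = 3.6e-08, 3.2e-08 and 0.008). Btrc fell by 1.22 ± 0.14, 1.31 ± 0.14 and 0.65 ± 0.17 (adjusted p = 1.1e-07, 4.3e-08 and 0.0099). Both day 7 calls were lost with the mean of a gene's probes (-0.58 for Spop and -0.43 for Btrc), with only the groups compared (-0.69 and -0.65) and without the TdTomato array of mouse MC791 (-0.61 and -0.51). That of Btrc was also lost with quantile normalization (-0.48). Evc2, a ciliary partner of Smoothened, fell by 1.78 ± 0.19 at day 1 (adjusted p = 2.6e-08) and 0.56 ± 0.19 at day 4 (adjusted p = 0.012), the latter a call lost with quantile normalization (-0.38) or without the TdTomato day 0 array of mouse MC122 (-0.46). Dyrk2, a kinase that acts on Gli2 and Gli3, fell at day 1 by 2.09 ± 0.64 (adjusted p = 0.0083), a call lost without the TdTomato day 0 array of mouse MC731, where the difference was -1.50. Its TdTomato readings of -6.47, -5.28 and -5.67 at day 1 were not above background, so the size of the fall is uncertain. In EGFP cells the Dyrk2 difference at day 1 was -1.09 ± 0.69 (SE). Sufu, which holds Gli proteins in the cytoplasm, did not pass in TdTomato cells at days 1, 4 or 7 (0.71 ± 0.35, 0.01 ± 0.35 and 0.40 ± 0.43, SE). Its other probe gave 0.72 ± 0.26 (SE) at day 1. The kinesin Kif7 fell at day 1 by 0.79.

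Of 12 genes that build the primary cilium, the organelle in which Smoothened works, 9 fell and 2 rose in TdTomato cells at day 1 (median -0.56), 12 fell at day 4 (median -0.88) and 3 fell at day 7 (median -0.48). These counts stand beside the same shares of all genes called lower, 27.9%, 35.9% and 8.47%. Of 8 podocyte markers 6 fell at day 1 (median -0.66), 7 at day 4 (median -1.13) and 5 at day 7 (median -0.61), and their part in the fall of the cilium genes was not tested. Cep164, which anchors the basal body, ran from 2.12 to 2.49 in TdTomato cells at day 0 and from -0.58 to 0.59 at day 1, a fall of 2.39 ± 0.20 (5.25-fold, adjusted p = 7.7e-10). Its other probes gave -2.26 ± 0.33 and -2.09 ± 0.25. By day 7 it stood at 2.18 and 1.94. Kif3a, a subunit of the motor that carries cargo into the cilium, fell by 1.29 ± 0.16 at day 1 (adjusted p = 3.8e-07), and the trafficking adaptor Tulp3 fell by 1.24 ± 0.20 (adjusted p = 1.6e-05). Arl13b, a small GTPase of the ciliary membrane, went the other way at day 1, rising by 0.93 ± 0.31 (adjusted p = 0.015), and fell by 1.40 ± 0.31 at day 4 (adjusted p = 0.00062). The day 1 call was lost without the TdTomato array of mouse MC731 of day 0 (0.78) or of mouse MC831 of day 1 (0.76). The difference between the populations in its change by day 1 was 1.62 ± 0.46 (adjusted p = 0.0071).

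**Figure D3:**
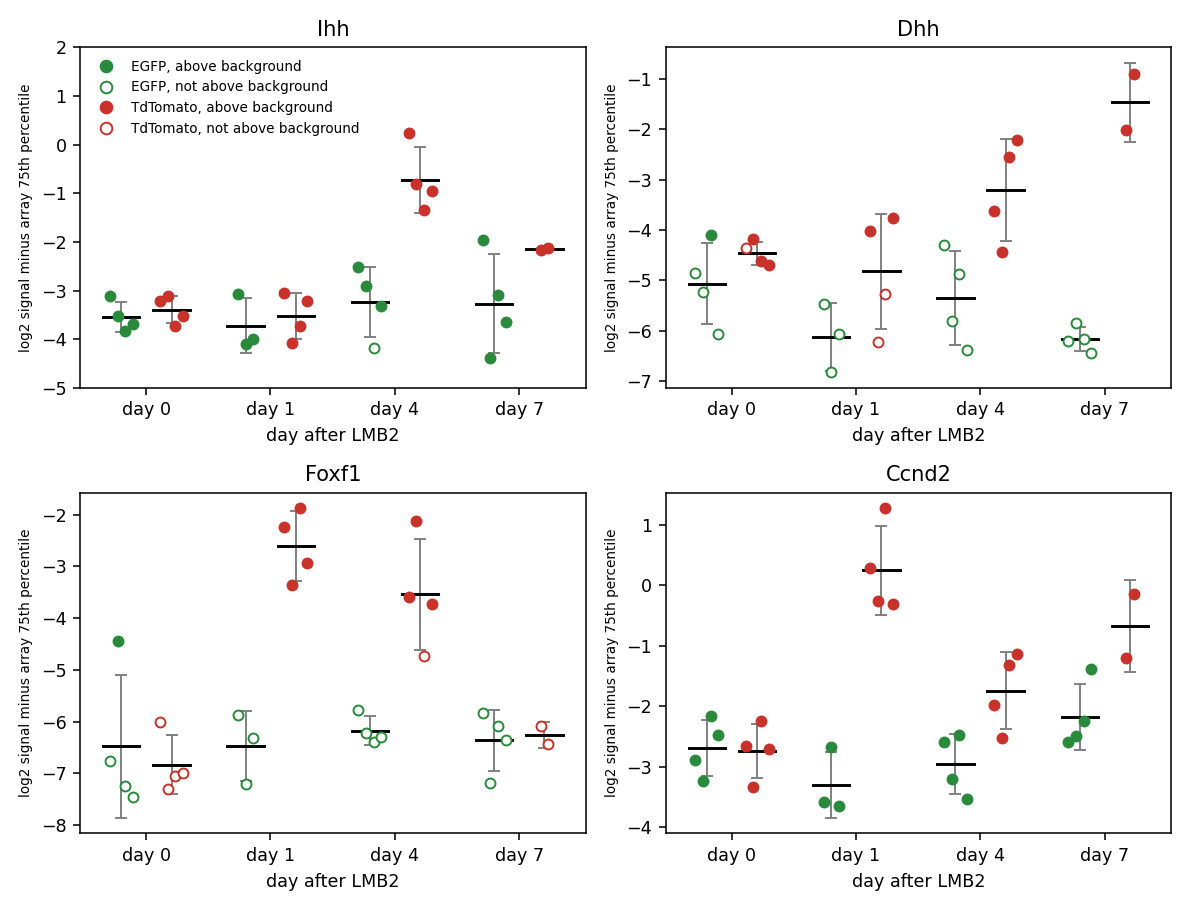
Ihh, Dhh, Foxf1 and Ccnd2 on each array, as log2 signal minus the array's 75th percentile (vertical axes, which differ between panels) by day after LMB2, with EGFP in green and TdTomato in red. Filled points were well above background, black lines are means and grey bars are SD. Ihh is high on the 4 TdTomato arrays of day 4 (-1.35 to 0.24), Dhh on the 2 of day 7 (-2.02 and -0.91), and Foxf1 on the 4 of day 1 (-3.37 to -1.88) and 3 of the 4 of day 4, and Ccnd2 on the 4 of day 1 (-0.31 to 1.27).

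Reported target genes of Gli factors did not move as 1 group. Of 10 listed genes 9 passed the filter, and Fst did not. In TdTomato cells 4 rose and 3 fell at day 1 (median 0.18), 3 rose and 2 fell at day 4 (median -0.16), and 4 rose and 1 fell at day 7 (median 0.87). Of all genes 23.8% were called higher and 27.9% lower at day 1, 21.4% and 35.9% at day 4, and 10.9% and 8.47% at day 7. Foxf1, a forkhead factor of mesenchyme, had the widest change. It was below background on all 4 TdTomato arrays of day 0 and read -2.24, -3.37, -1.88 and -2.93 at day 1 and -3.59, -2.12, -4.74 and -3.72 at day 4. It was at least 5.55-fold higher at day 1 (fitted 4.23 ± 0.55, limma adjusted p = 6e-07) and at least 2.90-fold higher at day 4 (3.29 ± 0.55, adjusted p = 2.4e-05), with 3 of 4 arrays above background at day 4. Foxf1 passed the filter only through these TdTomato arrays of days 1 and 4, so its adjusted p values are no support for the rise. With normexp the day 4 difference was 0.24 and did not pass. The day 1 difference ran from 0.55 to 4.51 over 17 alternatives, so its size depends on the processing. Both arrays of day 7 were below background. On EGFP arrays Foxf1 was above background on 1 of 15.

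The cyclin Ccnd2 rose in TdTomato cells at day 1, from a range of -3.34 to -2.25 at day 0 to one of -0.31 to 1.27, a log2 difference of 2.98 ± 0.39 (7.91-fold, adjusted p = 7.2e-07). It remained 2.06 ± 0.48 above day 0 at day 7 (adjusted p = 0.0038), a call lost without the array of mouse MC791, where it was 1.53. Its change by day 1 differed between the populations by 3.60 ± 0.58 (adjusted p = 3e-05). The related Ccnd1 fell in TdTomato cells at day 1 by 0.95 ± 0.30 (adjusted p = 0.01), a call lost without the array of mouse MC125 (-0.70). At day 7 Ccnd1 rose in both populations, by 3.38 ± 0.30 in EGFP cells (10.4-fold, adjusted p = 3.5e-08) and by 2.81 ± 0.37 in TdTomato cells (7.03-fold, adjusted p = 6.8e-06). Gli1 was not above background on the EGFP arrays of day 7, and its part in the Ccnd1 level was not tested. Snai1, a repressor of epithelial genes, rose in TdTomato cells at day 4 by 2.30 ± 0.35 (adjusted p = 8.6e-06) and day 7 by 1.93 ± 0.43 (adjusted p = 0.0027), and in EGFP cells at day 7 by 1.53 ± 0.35 (adjusted p = 0.0061). Bcl2 rose in TdTomato cells by 1.15 at day 1 and fell by 0.87 at day 4, and Foxl1 rose by 1.13 at day 1 and fell by 1.40 at day 4.

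Whether the change from day 0 differed between TdTomato and EGFP cells was tested by the interaction of population and day. At day 1, 18 of 49 pathway genes passed, 7 with a higher and 11 with a lower change in TdTomato cells, where 18.3% and 20.1% of all genes passed. At day 4, 25 passed, 4 higher and 21 lower, beside 16.0% and 28.4% of all genes. With the mouse as a replicate block, 32 passed at day 1. At day 7, 1 passed, which was Dhh, beside 2.65% and 0.0384%. Compared with EGFP cells of the same day, 29 of 49 passed at day 1, 8 higher and 21 lower in TdTomato cells (all genes 23.7% and 25.6%). At day 4, 36 passed, 7 higher and 29 lower (all genes 21.0% and 38.6%). At day 7, 1 passed, which was higher (all genes 6.19% and 0.800%), or 5 with the mouse as a replicate block. With only the groups compared, 17 passed at day 1. The 2 populations did not differ by this rule at day 0, where 0 of 49 passed by limma, 0 had an unadjusted p under 0.05, and 0% of all genes passed in either direction.

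**Figure D4:**
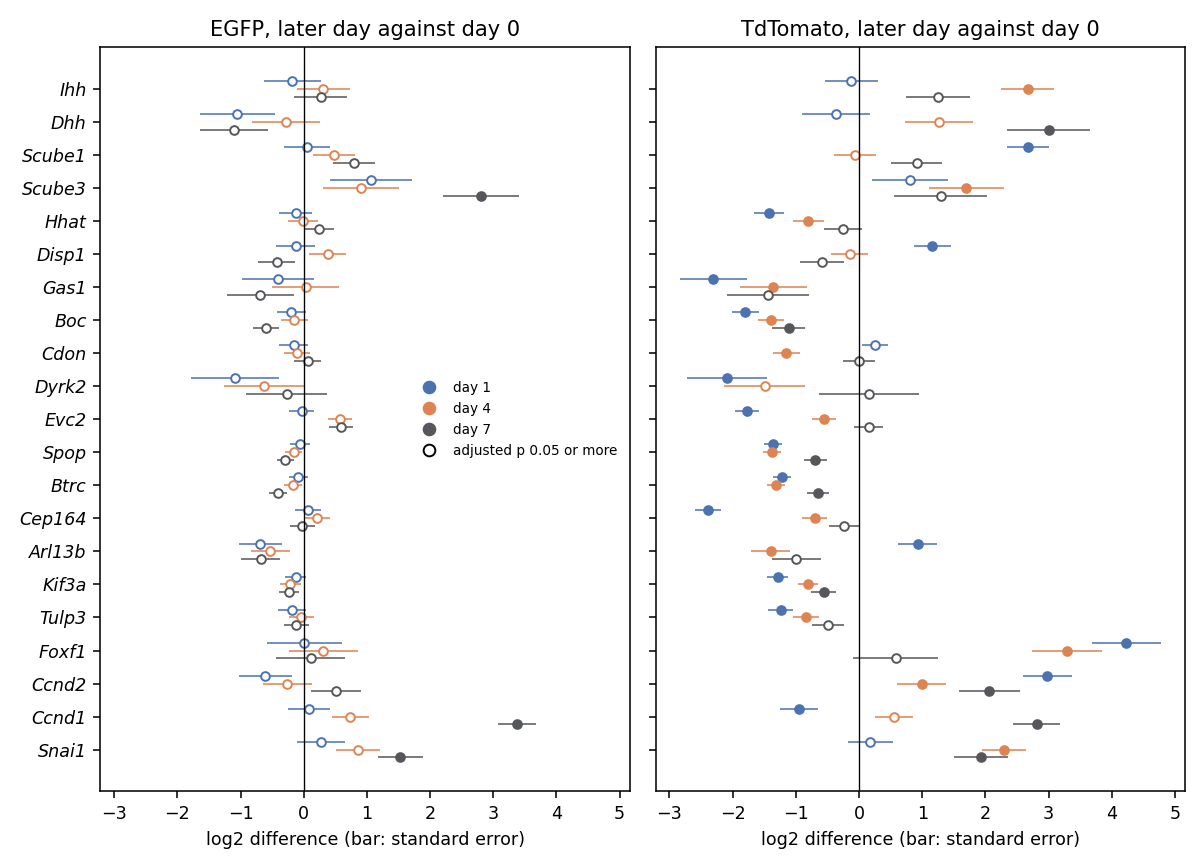
Log2 difference of each later day from day 0 (horizontal axis, bar: limma standard error) for 21 named pathway genes (vertical axis), in EGFP cells on the left and TdTomato cells on the right, with day 1 in blue, day 4 in orange and day 7 in grey. Filled points passed an adjusted p of 0.05. Most filled points are in TdTomato cells, where Boc, Spop, Btrc and the cilium gene Kif3a lie left of 0 on all 3 days and Foxf1 reaches 4.23 at day 1.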

How the data were processed

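RNA of sorted podocytes was measured on 29 Agilent 1-colour arrays (29 samples, 16 mice), scanned and read with Agilent Feature Extraction 11.5.1.1, per the submitters' processing notes. The deposited scanner files hold linear intensity per spot and flags for spots well above background, saturated or outlying. The authors' deposited series matrix holds log2 values of 39430 probes. Its columns equalled the scanner values, scaled as below, plus a constant of 0.12 to 0.22 for 27 arrays, and the columns of both arrays of mouse MC221 at day 7 equalled the mean of their group's arrays. Column medians of that matrix ran from -3.18 to -2.33, and no source used here gives the origin of its constants.

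From the files, log2 of the processed intensity minus the 75th percentile of each array's non-control spots was computed. Outlier-flagged spots were left out, which left 48 missing gene values. Spots of a probe were averaged, probes well above background on at least 3 arrays were kept (38187 of 55681), and the brightest probe stood for a gene. Probes were named through RefSeq accessions: 26576 had 1 symbol, 0 several and 29105 none. limma 3.58.1 in R 4.3.3 (lmFit and eBayes) fitted 8 group means over all 29 arrays and 13 comparisons, with Benjamini-Hochberg adjustment over 15622 genes and a threshold of 0.05. The fit was tested on simulated data. Python 3.11.15 with pandas 2.3.3 and matplotlib 3.10.9 served for the tables and plots. Array number limits the precision.

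The 6 genes, the lists and the rule for named genes were chosen with earlier results of these data known. Named genes were the 6 genes, every ligand, up to 4 called genes per pathway list with the widest differences, and for Gli1, Ptch1 and Smo the 3 genes with the highest Pearson correlation. Kif7, Sufu, Bcl2, Foxl1 and the cell type markers were named outside this rule, after their values were seen. Some genes of the lists are counted but not reported here by name. Replicates are mice. In 13 mice both populations were measured, so that the arrays pair by animal. The correlation of a mouse's 2 arrays in their deviations from the group means was 0.04 to 0.64, and the consensus correlation was 0.596. Alternatives were other background correction, scaling, filters and probe rules, the authors' values, slide or mouse as a block, only the groups compared and leaving out single arrays. The normexp alternative used median signals, since a mean signal was not used here.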

Additional observations from a re-analysis of the deposited data

Results flagged for a closer look

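On the brighter Smo probe, 1 of the 4 EGFP arrays of day 0, from mouse MC122, stood apart from the others at 6.65, with a gap to the nearest array of 0.898 of the group's range. Chance sets 1 array apart in this way in about 1 in 20 groups.

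For the genes below the change from day 0 differed between TdTomato and EGFP cells by the limma interaction test, and values are the TdTomato change minus the EGFP change in log2. By day 1 the difference was positive for Foxf1 (4.22), Ccnd2 (3.60), Scube1 (2.63), Arl13b (1.62) and Disp1 (1.30). It was negative for Cep164 (-2.47), Evc2 (-1.74), Boc (-1.60), Spop (-1.30), Hhat (-1.29), Kif3a (-1.16), Btrc (-1.12) and Tulp3 (-1.05). With normexp the day 1 calls of Foxf1 (0.40) and Scube1 (0.06) were lost, and without the EGFP day 1 array of mouse MC541 that of Disp1 (1.07) was lost. Scube1 passed the filter only through the TdTomato arrays of day 1, so its call is no support. Foxf1 passed it only through the TdTomato arrays of days 1 and 4, so its calls by days 1 and 4 are no support either.

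By day 4 the difference was positive for Foxf1 (2.99), Ihh (2.36) and Snai1 (1.43). It was negative for Boc (-1.24), Spop (-1.22), Btrc (-1.15), Evc2 (-1.14), Cdon (-1.04), Cep164 (-0.91), Tulp3 (-0.80) and Kif3a (-0.60). The Kif3a call was lost in 10 of 25 alternatives (-0.60 to -0.37) and the Tulp3 call in 6 of 25 (-0.80 to -0.64). Those of Foxf1 with normexp (0.15), Cep164 with quantile normalization (-0.67) and Snai1 without the EGFP day 0 array of mouse MC742 (1.16) were lost as well. By day 7 the difference was 4.11 for Dhh, a call lost with normexp (1.1) and without the TdTomato array of mouse MC791 (3.55).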

How the results depend on the processing

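The counts of members past the threshold in TdTomato cells at days 1 and 4 were 2 to 3 and 3 under 17 alternatives each, and those of the other 49 pathway genes were 29 to 36 and 28 to 36. With normexp background correction the members' count was 1 in place of 3 in TdTomato cells at day 7, and 0 in place of 1 for TdTomato against EGFP and for the interaction at day 7. The other genes' counts under normexp were 2 in place of 4 in EGFP cells at day 7, 3 in place of 1 for TdTomato against EGFP at day 7 and 0 in place of 1 for the day 7 interaction. With the authors' values the members' count was 1 in TdTomato cells at day 7 and 0 for the interaction. Without both arrays of mouse MC221 it was likewise 1 and 0, and with only the groups compared it was 1 in TdTomato cells at day 7. With the mean of a gene's probes it was 1 in EGFP cells at day 7 (0 as reported) and 1 in the day 4 interaction (2 as reported). With slide as a block 1 member was called in EGFP cells at day 7, and the other genes' counts were 9 in EGFP and 21 in TdTomato cells at day 7, 5 for TdTomato against EGFP at day 7 and 28 for the day 1 interaction. With only the groups compared they were 2 in EGFP cells at day 7 and 17 for TdTomato against EGFP at day 1 (29 as reported). Quantile normalization gave 3 for TdTomato against EGFP at day 7. With the mouse as a replicate block, the pairing by animal gave 5 for TdTomato against EGFP at day 7 and 32 for the day 1 interaction, and it moved no other count by more than 1.5 times.

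Leaving out 1 array at a time gave members' counts of 1 to 3 in TdTomato cells at day 7, 0 to 1 for TdTomato against EGFP at day 7 and 0 to 1 for the day 7 interaction. The other genes' counts ran from 4 to 13, 1 to 3 and 0 to 1 in these comparisons, the lowest without the TdTomato array of mouse MC791 in the first and last. A lone TdTomato array of day 7 was then assumed to vary like the other groups.

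On the dimmer Smo probe, an alternative chosen after seeing the data, the Smo difference changed sign to 0.22 in TdTomato cells at day 4, 0.07 at day 7, 0.15, 0.65 and 0.87 for TdTomato against EGFP at days 1, 4 and 7 (-0.33 as reported at day 7), and 0.18, 0.68 and 0.90 for the interactions (-0.38 at day 7). With normexp Scube3 in TdTomato cells at day 4 was -0.01. Of 1879 values of the other named genes under alternatives, 1782 kept direction and call, 96 lost the call and 1 reversed. The cause was not tested. Normexp gave 44.4% higher among the genes called in TdTomato cells at day 7 (56.3% as reported) and 60.6% for TdTomato against EGFP (88.6%), and the authors' values gave 74.8% for the former. Normexp moved the median of all genes from -0.14 to -0.02 in TdTomato cells at day 7 and from -0.08 to -0.19 in the day 1 interaction. Gli2, Gli3 and Hhip lie at the limit of detection.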
